A study of Rattus norvegicus with 16 samples.

Results

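The hairpins rno-mir-144 and rno-mir-451 are 2 of the 392 microRNA hairpins in the rat small RNA libraries, and both were taken by their hairpin identifier alone. Small RNA was sequenced on SOLiD from adult males of 2 inbred strains, BN-Lx and SHR (the spontaneously hypertensive rat), with no treatment of either, in kidney, testis, heart, spleen, liver and whole brain. A first set of 12 libraries came from 1 rat per strain and 6 tissues. In this set a strain cannot be told apart from its rat, within a tissue or over all 6. A second set of 4 further livers raised liver to 3 rats per strain and the study to 16 libraries from 6 rats. A library of brain, liver, spleen, heart or kidney in the first set held 403453 to 1064894 reads, a testis library only 26880 (BN-Lx) or 29131 (SHR), and a further liver 1167607 to 3229461. Testis and the SHR liver of the first set had more PCR cycles than the others. Hairpins known for their tissue were highest in the tissue of the label in both strains in 15 of 16 cases, the exception being mir-192, listed for kidney and highest in liver. The cases count the hairpin copies of mir-124 and of mir-9 singly, although reads fitting several hairpins were shared out among them.

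A microRNA hairpin is cut out of a longer transcript in the nucleus, and Dicer then removes its loop and leaves a duplex of a 5p and a 3p arm. The hairpin of mir-451 is too short for Dicer. Argonaute 2 cuts its 3p side instead, and the product is then trimmed from its 3' end, so that the mature RNA runs around the loop and the 3p side yields no arm of its own. Both hairpins come from 1 transcript that GATA1 switches on in red cell precursors, and they are known for supporting red cell maturation. Red cells carry them in blood, and the spleen stores and clears red cells and, in rodents, also makes them.

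In RefSeq both hairpins lie on the plus strand of chromosome 10 of GRCr8, mir-144 at chr10:63459397-63459479 and mir-451 at chr10:63459569-63459640, with 89 nt between them. The whole hairpins are shown because the results turn on where reads start and end along them, and capitals mark the annotated 5p and 3p arms.
rno-mir-144 hairpin: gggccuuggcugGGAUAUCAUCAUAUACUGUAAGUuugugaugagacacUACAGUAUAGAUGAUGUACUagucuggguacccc
rno-mir-451 hairpin: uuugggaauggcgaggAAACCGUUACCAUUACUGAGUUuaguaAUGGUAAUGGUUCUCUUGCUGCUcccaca
The mature arms follow with the seed, bases 2 to 8 and the part that pairs with a target, in capitals.
rno-miR-451-5p: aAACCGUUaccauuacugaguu
rno-miR-451-3p: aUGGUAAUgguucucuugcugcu
rno-miR-144-5p: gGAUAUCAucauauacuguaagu
rno-miR-144-3p: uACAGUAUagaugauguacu
The 4 seeds differ from one another, and none of the 693 mature rat microRNAs in the RefSeq table shares any of them. Folded in RNAfold, the mir-451 hairpin of 72 nt formed 30 base pairs around a loop of 4 nt at positions 35 to 38 (-41.5 kcal/mol), inside its annotated 5p arm. The mir-144 hairpin of 83 nt formed 33 base pairs around a loop of 6 nt at positions 38 to 43 (-37.5 kcal/mol), between its arms.

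Spleen held the most mir-451-5p of the 6 tissues in both strains. Levels are given as multiples of the ocm, an outlier-corrected mean of each library taken over the arms of known hairpins without its 3 arms with most reads. The level was 76.5 in BN-Lx spleen and 50.1 in SHR spleen, where the arm took 8.89% of all reads (exact 95% interval 8.83 to 8.96) and 5.57% (5.51 to 5.63). It was the arm with the third-most reads in BN-Lx spleen and the fourth-most in SHR spleen. Heart followed with 22.1 in BN-Lx and 10.6 in SHR, and liver of the same rats with 10.9 and 9.78. Brain was at 1.50 and 2.99, testis at 2.06 and 2.01, and kidney at 1.32 and 1.22. Spleen lay above every other library. By the ocm, heart and liver of the first set overlapped, as did brain and testis, and kidney lay below all of them. The testis values rest on 65 and 71 reads. Intervals here and below cover counting error only, since PCR copies are not separate molecules.

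mir-144-5p had the same 3 tissues on top at a far lower level. It stood at 1.41 in BN-Lx and 2.27 in SHR spleen, at 0.315 and 0.319 in heart, and at 0.237 and 0.202 in liver of the first set. Brain was at 0.0391 and 0.0721 and kidney at 0.0445 and 0.0458, so that these 2 tissues overlapped, whereas spleen, heart and liver of the first set did not. BN-Lx liver 3 of the further livers stood at 0.328, above both heart libraries. The BN-Lx testis library held 0 reads, which allows a level of up to 0.0950, and the SHR testis library held 1 read. Spleen exceeded heart, the next tissue, 4.47-fold in BN-Lx and 7.13-fold in SHR for mir-144-5p, and 3.47-fold and 4.74-fold for mir-451-5p.

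**Figure D1:**
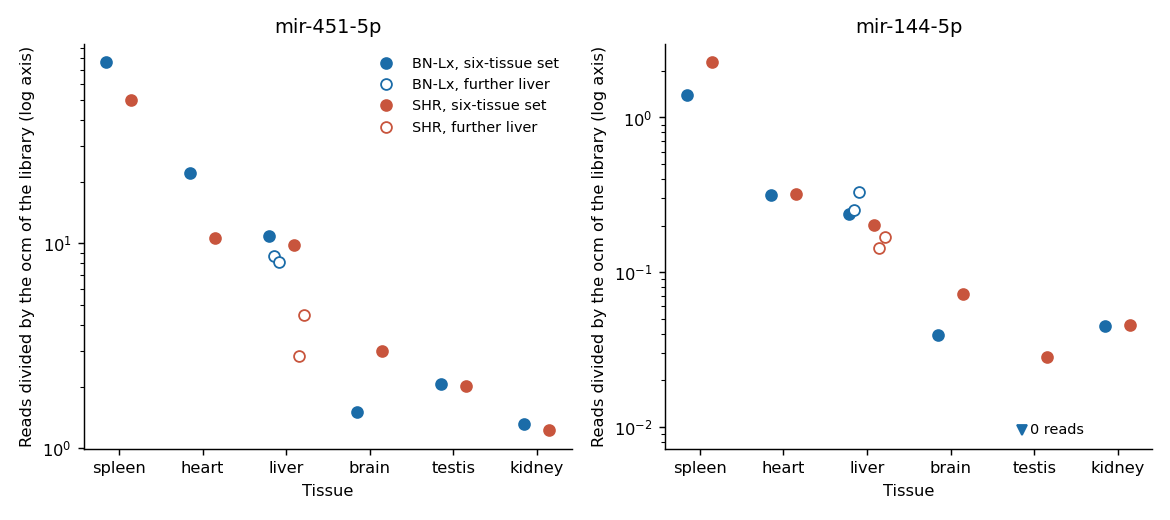
Level of mir-451-5p (left) and mir-144-5p (right) in each of the 16 libraries, as reads divided by the ocm on a log axis, by tissue; filled points are the first set, open points the further livers and the triangle a library with 0 reads. Spleen is highest for both arms in both strains, at 76.5 and 50.1 for mir-451-5p and at 1.41 and 2.27 for mir-144-5p.

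The tissue comparison was tested in edgeR over 457 arms, each tissue having its BN-Lx and its SHR library as replicates. Both 5p arms were higher in spleen than in each of the 5 other tissues. Against heart the log2 difference was 1.91 (SE 0.45, edgeR adjusted p = 0.0101) for mir-451-5p and 2.39 (SE 0.56, adjusted p = 0.0095) for mir-144-5p, in a contrast where 11.6% of all arms were called higher in spleen. Against liver it was 2.74 (SE 0.47, edgeR adjusted p = 0.00149) and 3.11 (SE 0.58, adjusted p = 0.00277), with 8.32% of arms called. Against brain the differences were 5.47 (SE 0.54) and 5.70 (SE 0.65), and 24.5% of arms were called. Against kidney they were 5.79 (SE 0.54) and 5.42 (SE 0.65), with 13.1% of arms called. Against testis mir-451-5p differed by 6.11 (SE 0.55), with 16.4% of arms called. For mir-144-5p the ratio of spleen to testis levels was 117 (exact 95% interval 20.9 to 4611), since testis held a single read. In brain, kidney and testis the edgeR adjusted p of either arm was at most 0.000147.

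The heart contrast depended on single libraries. In edgeR without BN-Lx spleen or without SHR heart, the log2 difference of mir-451-5p was 1.44 (adjusted p = 0.126) or 1.54 (adjusted p = 0.0625). For mir-144-5p, edgeR gave 2.38 without SHR spleen (adjusted p = 0.0580), 2.57 without BN-Lx heart (0.0662) and 2.31 without SHR heart (0.0901). The calls in the other 4 tissues held for both arms without any single library of the contrast. The balance of calls over all arms moved with the scaling. With TMM factors, the calls higher in spleen were 112 of 258 against brain, 75 of 129 against testis, 38 of 69 against liver and 60 of 111 against kidney. With total reads these became 80 of 268, 20 of 116, 60 of 87 and 38 of 110. In testis, RLE factors gave 45 higher and 79 lower calls, and DESeq2 50 and 83. The 2 arms stayed higher in spleen under each.

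The arms on the other side were sparse. Spleen held 65 mir-144-3p reads in the BN-Lx library and 83 in the SHR library, with at most 17 in any other library of the first set and 0 in both testis libraries. The level in BN-Lx spleen, 0.0757, lay under the 0.0950 that 0 reads allow in BN-Lx testis, so no difference was detectable there at this depth. Over both strains the ratio of spleen to testis levels had an exact 95% lower limit of 1.88. mir-144-3p passed the filter on low counts through spleen, so its tests against other tissues are not given. mir-451-3p did not pass the filter.

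The summed level of white blood cell markers was highest in spleen in both strains, as were both 5p arms. Of 6 hairpins listed for these cells, mir-142, mir-150, mir-223, mir-146a and mir-146b were in the files, and mir-155 was not analysed here, as was mir-486, the third hairpin linked to red cells. The sum was 160 to 172 in spleen, 19.96 to 20.5 in heart, 15.2 to 19.4 in liver of the first set, 12.9 to 13.2 in testis, 5.93 to 6.36 in brain and 4.96 to 8.87 in kidney. None of the 5 was at 0 outside testis. mir-223, a myeloid microRNA, stood at 85.6 and 118 in spleen, and mir-150, a lymphocyte microRNA, at 71.3 and 47.4, and these 2 made up most of the sum. mir-142 was also highest in spleen, at 2.55 and 3.73. mir-146a was not, at 0.936 and 2.23 in spleen against 0.939 and 2.39 in liver, and mir-146b was highest in brain in BN-Lx (0.0608 against 0.0460 in spleen) and in spleen in SHR (0.137). Their part in the tissue pattern was not tested, and in whole tissue fewer cells of a type and less RNA per cell cannot be told apart.

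The 2 hairpins followed each other across libraries. Over the 12 libraries of the first set, log2 of the level plus 0.01 of mir-451-5p and mir-144-5p had a Pearson r of 0.918 and a Spearman rho of 0.832, and r was 0.831 without the 2 spleen libraries. These are descriptions, since the libraries share 2 rats, and no p is given. Among 385 arms with at least 120 reads, mir-144-5p was the arm most like mir-451-5p and the reverse. Next to mir-451-5p came mir-150-5p (r = 0.886), mir-500-3p (0.833), mir-223-3p (0.816) and mir-144-3p (0.800). Next to mir-144-5p came mir-142-5p (0.911), mir-532-5p (0.896), mir-144-3p (0.868) and mir-142-3p (0.864).

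Their ratio was not fixed. In the 14 libraries with at least 20 reads of each, there were between 19.6 and 70.1 reads of mir-451-5p for each read of mir-144-5p, with a median of 33.7. In spleen the ratio was 54.3 in BN-Lx and 22.1 in SHR, and in heart 70.1 and 33.2. In brain (38.3 and 41.4), liver of the first set (45.8 and 48.4) and kidney (29.6 and 26.7) the strains lay closer together. The further livers of BN-Lx had 34.1 and 24.8 and those of SHR 19.6 and 26.3, all below the livers of the first set. With 1 library per tissue and strain outside liver, these differences have no replicate check.

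No strain difference of the members passed a test. Across the 6 tissues edgeR gave SHR minus BN-Lx as -0.18 (SE 0.26) on the log2 scale for mir-451-5p and 0.28 (SE 0.34) for mir-144-5p, both at an adjusted p of 0.996. Each strain was 1 rat here, so the SE covers spread over tissues and not between rats. In that comparison edgeR called 0% of 457 arms, with 8 at an unadjusted p under 0.05, and DESeq2 called 0 of 686, with 18. By the ocm, the mir-451-5p level was lower in SHR in every tissue but brain. That direction depended on the scaling where the strains lay close. With TMM factors testis was higher in SHR (1430 against 1255 in BN-Lx, in TMM-scaled CPM), and as plain shares of reads both testis (0.244% against 0.242%) and kidney (0.170% against 0.169%) were. Without the heart pair its difference was 0.02. The strain difference in spleen minus that in liver, from all 16 libraries, was -0.44 (SE 0.88) for mir-451-5p and 0.75 (SE 1.03) for mir-144-5p, both at an edgeR adjusted p of 0.9998. In that fit 0% of 500 arms were called, with 4 at an unadjusted p under 0.05. There the lone libraries are assumed to vary like the livers.

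In liver, with 3 rats per strain, both 5p arms had the lower mean in SHR. mir-451-5p stood at 10.9, 8.63 and 8.14 in BN-Lx (9.21 ± 1.45, SD, n = 3) and at 9.78, 2.81 and 4.46 in SHR (5.68 ± 3.64, SD, n = 3), the first of each being the liver of the first set. The SHR liver of the first set lay among the BN-Lx livers, and both further SHR livers lay below all of them. mir-144-5p stood at 0.237, 0.253 and 0.328 in BN-Lx and at 0.202, 0.144 and 0.170 in SHR, and here the strains did not overlap. The same held, in either direction, for 8.49% of 271 arms tested. Two-sided exact permutation tests of the levels gave p = 0.3 for mir-451-5p and p = 0.1 for mir-144-5p, the smallest that 3 rats against 3 allow. Livers of the same replicate number deviated together, but those of different numbers were not compared, so a pairing is not established. In all 3 pairs by number SHR was the lower for both arms. Flipping signs over the 3 pairs, a test chosen after seeing the data, gave an exact permutation p = 0.25 for each arm, the smallest that 3 pairs allow.

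The edgeR fit of the 6 livers gave SHR minus BN-Lx as -0.78 (SE 0.46) on the log2 scale for mir-451-5p and -0.67 (SE 0.39) for mir-144-5p, both at an adjusted p of 0.995. With the replicate number as a block the differences were -0.88 (SE 0.33) and -0.67 (SE 0.31), both at an edgeR adjusted p of 0.540, and the unadjusted p went from 0.134 to 0.0369 for mir-451-5p and from 0.124 to 0.0764 for mir-144-5p. Without the block edgeR called 0% of the 271 arms, with 6 at an unadjusted p under 0.05, and DESeq2 called 1 of 550, with 21. On counts simulated for this liver design, edgeR recovered 5.56% of 2-fold and 59.3% of 4-fold changes. A missing call here therefore says little about differences of up to 2-fold. In the 4 further livers alone the differences were -1.06 (SE 0.30, edgeR adjusted p = 0.300) and -0.73 (SE 0.26, adjusted p = 0.378). Without SHR liver 2 the difference of mir-451-5p was -0.49, and without SHR liver 1 it was -1.16, with no call in either fit. The summed level of the white blood cell markers was 15.2, 8.39 and 11.8 in livers of BN-Lx, against 19.4, 14.0 and 13.5 for SHR, so it had the higher mean in SHR, opposite to the members. Its part in the liver values was not tested.

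Nearly all reads of mir-451 came from its 5p side. Over the 16 libraries 6 of 158563 reads fell on the 3p arm, or 0.00378% (exact 95% interval 0.00139 to 0.00824), and 5 of the 6 started at position 44, the first base of the annotated 3p arm. Spleen held 1 such read in each strain, among 65634 and 27681 reads of the hairpin, SHR liver 1 held 1 and SHR liver 3 held 3. In the other 12 libraries none was found. At the 65 reads of the hairpin in BN-Lx testis, 0 reads allow a share of up to 5.52% (exact 95% interval).

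mir-144 gave reads on both arms, with the 5p arm ahead in every library that had its reads. Most work on miR-144 concerns the 3p arm. The paper warns that capture bias may make read counts per arm misleading, so the shares here and for mir-451 describe reads only. The 3p arm took 374 of 4818 reads over the 16 libraries, or 7.76% (exact 95% interval 7.02 to 8.55). In spleen it took 5.11% (3.96 to 6.46) in BN-Lx and 6.20% (4.97 to 7.63) in SHR. The intervals of the 10 libraries of the first set with at least 20 reads were wide, around shares of 0.685% in BN-Lx heart to 12.5% in BN-Lx brain.

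The further livers split in arm use, but not by strain. The 3p arm took 23.6% (exact 95% interval 19.0 to 28.7) of mir-144 reads in BN-Lx liver 2 and 19.96% (16.5 to 23.8) in SHR liver 3. In BN-Lx liver 3 it took 2.16% (0.796 to 4.64) and in SHR liver 2 2.15% (0.868 to 4.37). One liver of each strain was thus high and one low. Among 120 hairpins with at least 100 reads in each of these livers, mir-144 ranked 20th by the range of its arm share, at 3.73 on the log2 odds scale against a median of 1.76. Without the 2 high livers the 3p arm took 5.07% of mir-144 reads over the remaining 14 libraries.

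**Figure D2:**
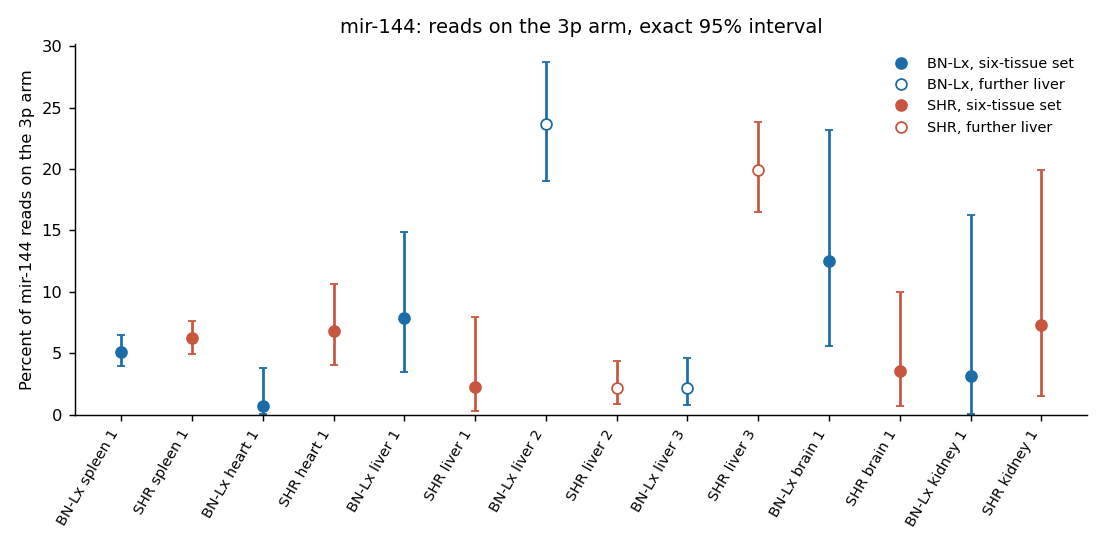
Percent of mir-144 reads on the 3p arm in the 14 libraries with at least 20 reads, with exact 95% intervals, by library; filled points are the first set and open points the further livers. BN-Lx liver 2 (23.6%) and SHR liver 3 (19.96%) stand above the other 12 libraries, which lie between 0.685% and 12.5%.

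The 5' ends of the members hardly varied. Over the 16 libraries 99.0% of mir-451-5p reads started at position 17 and 98.7% of mir-144-5p reads at position 13, both the first base of the RefSeq arm, so the seed was the annotated one in these reads. Of mir-144-3p reads 86.9% started at position 50, again the annotated base, and 10.2% started 1 nt earlier. In the first set at least 99.7% of mir-451-5p reads had the annotated start in each library. The further livers had less, 97.8% and 97.9% in BN-Lx, 95.4% in SHR liver 2 and 92.4% in SHR liver 3, with the other reads mostly starting 1 or 2 nt later.

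The 3' end of mir-451-5p was split between adjacent positions. Of 127142 reads with the annotated start in the first set, 63.8% ended at position 39 and were 23 nt long, 1 base beyond the RefSeq arm, 28.0% ended at position 38 with 22 nt, and 4.18% ended at position 37. Spleen supplied 65561 (BN-Lx) and 27654 (SHR) of these reads, with 67.9% and 73.8% of them ending at position 39. In the rest of the first set that share ran from 42.6% (SHR heart) to 64.8% (SHR testis, 71 reads). In SHR heart more reads, 46.1%, ended at position 38. The reads that end at position 39 or later run past the predicted loop at positions 35 to 38. Those that end at 37 or 38 stop within it. mir-144-5p ended ahead of its loop, and 83.2% of its 3194 reads ended at position 35, the RefSeq end. To show the bases at which the forms of mir-451-5p part, those of 22 to 25 nt are given. The 25 nt form and the rarer longer forms, not shown, came from the further livers alone. The shortest and the main form of mir-144-5p in the first set follow. Bases beyond the RefSeq arm are in capitals.
mir-451-5p, 22 nt: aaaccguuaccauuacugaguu
mir-451-5p, 23 nt: aaaccguuaccauuacugaguuU
mir-451-5p, 24 nt: aaaccguuaccauuacugaguuUA
mir-451-5p, 25 nt: aaaccguuaccauuacugaguuUAG
mir-144-5p, 17 nt: ggauaucaucauauacu
mir-144-5p, 23 nt: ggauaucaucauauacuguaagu
Only reads that match the hairpin perfectly were deposited, so bases added after cutting were counted only where they match it, as a U at position 39 would. An added U there and one read from the hairpin cannot be told apart.

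In the first set the 23 nt form of mir-451-5p made up more of its reads in spleen than in heart, liver, brain or kidney. Of its 22 and 23 nt reads, the 23 nt form made up 73.0% (exact 95% interval 72.6 to 73.3) in BN-Lx and 79.9% (79.4 to 80.4) in SHR spleen. In heart it made up 54.3% and 48.0%, in liver of the first set 56.0% and 59.2%, and in brain 50.1% and 51.1%. Kidney had 54.0% in BN-Lx and 68.5% in SHR, and testis 61.4% and 73.0% on 57 and 63 reads. Both spleen libraries thus lay above both libraries of heart, liver, brain and kidney, and the SHR testis interval (60.3 to 83.4) reached over the spleen values. The mean 3' end in spleen lay 0.285 nt in BN-Lx and 0.273 nt in SHR beyond the average of brain, liver, heart and kidney. Among 76 arms with at least 100 reads in each of these libraries, its mean shift of 0.279 nt was the largest towards the 3' side, against a median of 0.00277 nt, followed by mir-23a-3p at 0.235 nt. mir-144-5p was not among the 76. The reads were not longest in spleen once the further livers are counted, since their mean length was 22.7 nt in both spleen libraries but 22.8 nt in BN-Lx liver 2 and 22.9 nt in BN-Lx liver 3.

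**Figure D3:**
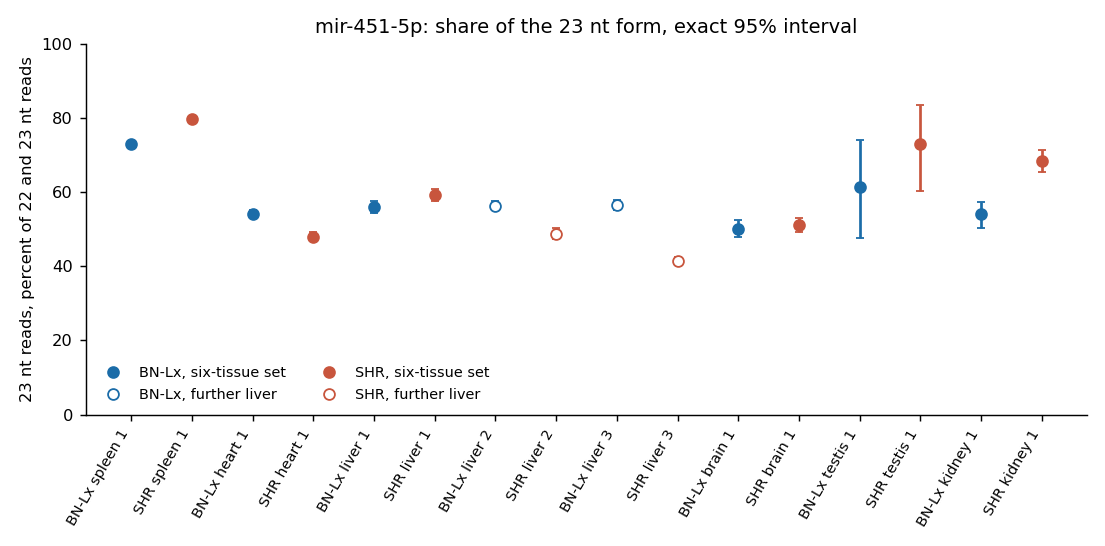
Share of 23 nt reads among the 22 and 23 nt reads of mir-451-5p in each of the 16 libraries, in percent with exact 95% intervals; filled points are the first set and open points the further livers. The 2 spleen libraries, at 73.0% and 79.9%, lie above heart, liver, brain and kidney.

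In liver the 23 nt share also differed between libraries. BN-Lx livers had 56.0%, 56.4% and 56.7%, whereas SHR livers had 59.2%, 48.8% and 41.4%. The BN-Lx livers lay within 1 percentage point of each other, and the SHR livers fell on both sides of them.

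The further livers held longer mir-451-5p reads that the first set lacked. Of at least 25 nt, BN-Lx livers 2 and 3 held 746 and 762 of its reads and the SHR livers 431 and 481, or 4.75% to 11.3% of the arm's reads, while all 12 libraries of the first set had none. Most ended at position 41 with 25 nt. Reads of at least 25 nt from any hairpin made up 0.161% to 0.296% of a further liver but at most 0.00744% of a library of the first set, so the 2 sets differed in long reads as a whole. Within the further livers, mir-451-5p ranked 5th of 141 arms by its share of such reads, at 7.74% against a median of 0.0293%. mir-144-5p had 0.0823% and ranked 55th. The further livers also held reads of 15 and 16 nt, below the 17 nt of the shortest reads in the first set.

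**Figure D4:**
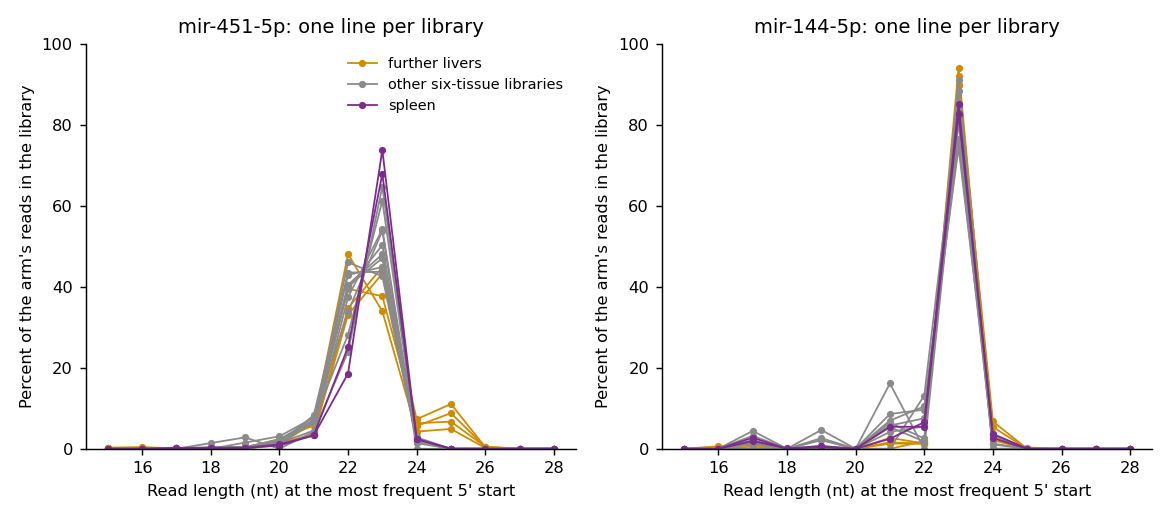
Length of reads with the most frequent 5' start, in nt, as percent of the arm's reads, for mir-451-5p (left) and mir-144-5p (right), with 1 line for each library with at least 20 reads. mir-451-5p is divided between 22 and 23 nt, with 23 nt highest in spleen and a further form of 25 nt in the further livers, while mir-144-5p has a single peak at 23 nt.

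Whether mir-451-5p had the wider 3' end depended on the measure. The SD of the 3' end was taken over reads with the annotated start, averaged over the libraries of a rat, and compared over 6 rats by a two-sided exact permutation test. It was 1.01 nt for mir-451-5p and 0.845 nt for mir-144-5p, a difference of 0.163 nt ± 0.325 (SD over 6 rats, exact p = 0.25), with mir-451-5p wider in 4 of 6 rats. The sets went opposite ways. mir-451-5p was narrower in the rats of the first set (difference -0.265 nt in BN-Lx and -0.243 nt in SHR) and wider in all 4 further livers (0.319 to 0.451 nt). In the first set 2.32% of mir-144-5p reads ended at position 29, 6 nt short of the main end, against 0.924% in the further livers.

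Counted as reads away from the most frequent 3' end, mir-451-5p was the wider arm in every rat. The mean was 52.8% for mir-451-5p and 11.6% for mir-144-5p, a difference of 41.2 percentage points ± 10.5 (SD over 6 rats, exact permutation p = 0.03125, the smallest that 6 rats allow). The difference was 31.7 and 25.7 points in the 2 rats of the first set and 41.7 to 52.5 points in the further livers. The entropy of the 3' end gave a difference of 1.11 bits (exact p = 0.03125, 6 of 6 rats). With only reads of at least 20 nt, the difference in SD was 0.502 nt (exact p = 0.03125, 6 of 6 rats).

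**Figure D5:**
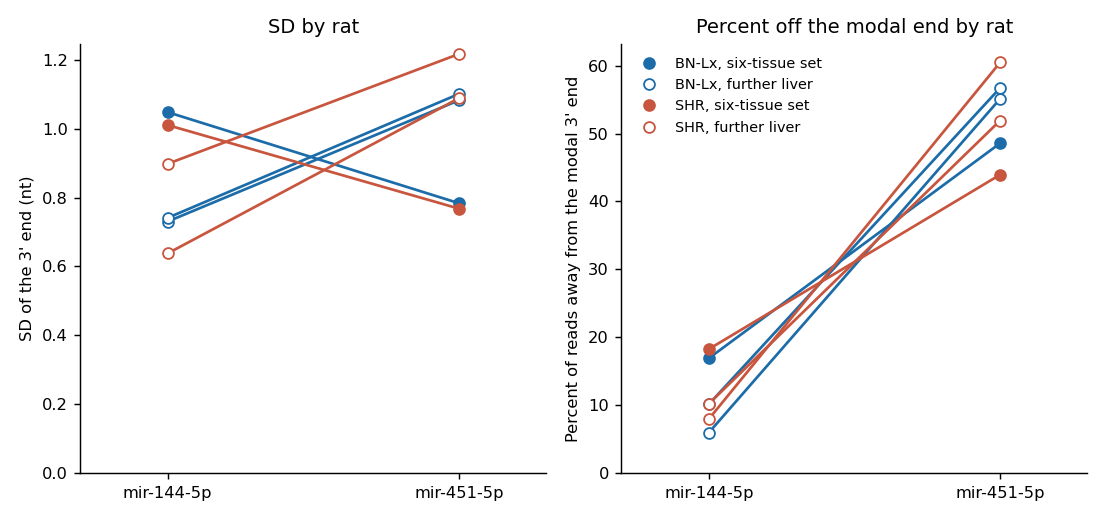
Spread of the 3' end of mir-144-5p and mir-451-5p in each of 6 rats, as the SD in nt (left) and as the percent of reads away from the most frequent end (right); a line joins the arms of a rat, and filled points are the first set. The SD is lower in mir-451-5p in the 2 rats of the first set and higher in the 4 further livers, while the percent away from the main end is higher in mir-451-5p in 6 of 6.

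Neither arm was extreme among all arms. Of arms with at least 1000 reads in the first set, 35.4% had a wider SD of the 3' end than mir-144-5p (1.07 nt) and 76.7% a wider one than mir-451-5p (0.735 nt), around a median of 0.940 nt. By the percent of reads away from the main end, 55.6% of arms exceeded mir-451-5p (36.2%) and 86.1% exceeded mir-144-5p (16.8%). The median was 39.2%. These values pool reads over libraries, and spleen held most mir-451-5p reads, with 32.1% away in BN-Lx and 26.2% in SHR. Averaged over 5 libraries per rat instead, mir-451-5p had 48.6% in the BN-Lx rat and 43.9% in the SHR rat of the first set. Other arms were not averaged in this way. The widest by SD were mir-664-1-3p and mir-664-2-3p, which share their reads, at 2.22 nt and mmu-mir-667-3p at 2.19 nt. The narrowest were mir-378-5p (0.317 nt), mir-742-3p (0.305 nt) and mir-365-3p (0.275 nt). mir-144-3p had 161 reads with its main start in the first set, 50.3% ending at position 70 with 21 nt and 27.3% at position 66 with 17 nt, and 164 in the further livers, 72.0% ending at position 70.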

How the data were processed

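The authors deposited an estimated count of perfectly matching reads by position (start and end) along each hairpin, unnormalized, in which reads fitting several hairpins were shared out equally. Small RNA of 15 to 40 nt was taken from a gel, and linker-trimmed SOLiD reads were mapped with SHRiMP to hairpins from miRBase and RGSC3.4. Here positions were summed per arm, split at the middle of the RefSeq hairpin (244 of 392 hairpins) or within 20 nt of the main read. Counts were rounded and tested in edgeR 4.0.16 (quasi-likelihood, TMM, filterByExpr, Benjamini-Hochberg at 0.05, two-sided), with DESeq2 1.42.0 as an alternative (R 4.3.3), after the scripts were tested on simulated data. Tissue and strain were terms for the first set, and strain alone for the livers. Livers of the same replicate number had deviations correlated at 0.667, 0.569 and 0.300 across arms. Livers of different numbers were not compared, and the livers of the first set share a number, so a pairing is not established. The ocm follows the study's methods. Sequences came from RefSeq (GRCr8). Hairpins were folded in RNAfold 2.7.2, and other values were computed in Python 3.11.15 with scipy 1.17.1. Members, lists and tests were chosen with earlier results of these data known. The text names every arm of both hairpins, the marker lists, the 5 arms most like each 5p arm and the 3 widest and 3 narrowest 3' ends. Alternatives varied the tool, scaling, filter, feature, libraries, read length, measure and pseudocount. The piRNA clusters were not used.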

Additional observations from a re-analysis of the deposited data

Results flagged for a closer look

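The difference in the SD of the 3' end between mir-451-5p and mir-144-5p had opposite signs in the first set and in the further livers. In both rats of the first set mir-451-5p had the smaller SD, by -0.254 nt on average, and in all 4 further livers it had the larger SD, by 0.371 nt on average. The livers of the first set alone showed the same sign as their rats, at -0.377 nt in BN-Lx and -0.249 nt in SHR. The difference between the sets was not tested. The further livers also held the reads of at least 25 nt that the first set lacked. With reads of at most 24 nt the mean over 6 rats was 0.0136 nt ± 0.220 (SD over 6 rats), and mir-451-5p was still wider in 4 of 6. The part of the long reads in the change of sign was not tested further.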

How the results depend on the processing

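The direction of both 5p arms in spleen against each tissue was kept under every tool, scaling, filter, feature and left-out library tried. With each library left out in turn, the log2 difference to heart ranged from 1.44 to 2.53 for mir-451-5p and from 2.31 to 2.57 for mir-144-5p. Relative to the median of all arms, which moved from -0.49 with TMM to -1.37 with total reads in brain and from 0.62 to -0.10 in testis, the difference of mir-451-5p was 5.92 to 5.96 in brain, 4.97 to 5.49 in testis and 1.76 to 1.85 in heart under 3 scalings. Arms higher in spleen ranged from 22 to 29 against heart, 16 to 21 against liver, 29 to 45 against testis and 16 to 47 against kidney with a library left out. With total reads there were 60 against liver, 20 against testis and 38 against kidney, with RLE factors 45 against testis, and with only the 4 libraries of the 2 tissues 34 against testis. Arms lower in spleen than in testis rose to 83 in DESeq2. Without the pair of libraries of a tissue the six-tissue strain difference of mir-451-5p ranged from -0.41 to 0.018, positive without heart. That of mir-144-3p was 0.32 (SE 0.71) with all pairs and ranged from -0.23 (without heart) to 0.82 (without liver). Without the spleen pair mir-144-3p did not pass the filter and has no value. The liver strain difference of mir-144-3p was -0.95 (SE 1.23) with all livers and ranged from -3.35 to 0.58 (without BN-Lx liver 2) with a liver left out. With the replicate block in the liver test, the log2 differences were -0.88 for mir-451-5p and -0.67 for mir-144-5p (edgeR adjusted p = 0.540 for both), and 0 arms were called, with 21 at an unadjusted p under 0.05. The block changed no call. A batch term for the 2 sets, chosen after seeing the data, gave -0.85 and -0.67 (adjusted p = 0.431). DESeq2 called 1 arm in liver. The heart over liver fold of mir-144-5p, 1.45, became 1.66 with TMM-scaled shares of reads and 1.97 with plain shares of reads. With both of these scalings heart and liver of the first set no longer overlapped for mir-451-5p. The 3' end comparison changed its call with entropy (1.11 bits), the percent away from the main end (41.2) and reads of at least 20 nt (0.502 nt). With each rat left out the SD difference ranged from 0.105 to 0.248 nt. The correlation of the 2 arms was 0.880 with a pseudocount of 1 and 0.969 without testis. The cause of these changes was not tested. Testis depth limits values there, and 1 rat per strain limits all strain values outside liver.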
